A study of Mus musculus with 2 samples.

Results

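The SOCS family of cytokine feedback inhibitors comprises 8 genes, Cish and Socs1 to Socs7, whose proteins share an SH2 domain and a C-terminal SOCS box. Its members were taken as all probe sets that the platform annotation pairs with exactly 1 of these symbols, which gave 24 of 34945 probe sets with a single symbol and all 8 of 18193 genes. Messenger RNA was measured on Affymetrix Mouse Genome 430 arrays, on which a gene is read by 1 or several probe sets of short oligonucleotides. The cells were CD4+ T cells of DEREG mice, a strain in which the Foxp3 promoter drives green fluorescent protein (GFP). Both groups carry that reporter and differ in how they were sorted, the first as GFP-positive, FoxP3-positive cells and the second as GFP-negative, FoxP3-negative cells. Each group is 1 array, labelled as CD4+GFP+FoxP3+ and CD4+GFPnegFoxP3neg. The comparison asks how Foxp3-expressing regulatory T cells differ from the other CD4+ T cells of the strain. Neither the labels nor the design text names the organ, the number, age or sex of the mice, pooling, or a treatment. With 1 array per group no difference has a replicate check, so no test was run and every fold below compares these 2 arrays.

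When a cytokine binds its receptor, Janus kinases (JAKs) bound to the receptor phosphorylate STAT transcription factors, and these switch on genes that include several SOCS genes. SOCS proteins then bind the receptor or the kinase through their SH2 domain and, through the SOCS box, recruit an elongin and cullin 5 ubiquitin ligase, which closes a negative feedback loop. CIS and SOCS2 are classic products of STAT5 downstream of IL-2 and related cytokines, SOCS1 restrains interferon-gamma and common gamma chain signals, and SOCS3 restrains receptors that signal through gp130. SOCS4 to SOCS7 are less studied. Regulatory T cells depend on IL-2 and STAT5 for the maintenance of Foxp3.

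Signals are MAS5 intensities on a linear scale, and the trimmed mean of 150.0 on both arrays shows that they were scaled to each other before deposit. Values given in pairs are GFP-positive first and GFP-negative second. A signal floor of 59.3 was set as the 90th percentile of 106 background probe sets, those of genes listed as restricted to other tissues. Not all of these genes were silent here, with Mbp at 684.3 and 1289.5 and Krt10 at 181.5 and 201.4. Signals under the floor were set to it ahead of the log2 step. A difference is log2 GFP-positive minus log2 GFP-negative. Where 1 array is under the floor it is a bound, written as at least N-fold, and where both are under it no fold is given. Foxp3, the gene behind the sort, had signals of 504 (GFP-positive) and 173 (GFP-negative), a difference of 1.54 log2 in the direction of the labels. The T cell markers Cd2 (7415 and 6628.5), Cd3d (4619 and 4677) and Cd3g (3598 and 4048) were high on both arrays. Of the 9 T cell markers with a probe set, all were above the floor. However, 7 had lower signals in GFP-positive cells, against 50.8% of all genes above the floor, and 4 were at least 1.5-fold lower, against 7.97%. These 4 were Cd247 (735 and 1445, with a further probe set higher by 1.09 log2), Cd4 (256.5 and 415), Cd3e (541 and 862) and Cd28 (937 and 1430), named after their values were seen. Of the 7 B cell, 8 myeloid, 5 CD8 T and NK cell and 4 erythroid and platelet markers with a probe set, 3, 4, 3 and 1, in that order, were above the floor on at least 1 array. Their summed signals were 450.0 and 480.3, 355.8 and 400.7, 1006 and 1502, and 59.5 and 140.3 on the GFP-positive and GFP-negative array, and none was listed at 0. Their part in the SOCS results was not tested. The brightest of these markers were Cd22 (98.3 and 235), Cd79b (222 and 70.8) and Ms4a1 (59.7 and 46.4) for B cells, Adgre1 (94.3 and 79.1), Fcgr3 (35.0 and 126) and Csf1r (83.9 and 43.5) for myeloid cells, Nkg7 (724 and 1222), Klrd1 (149 and 104) and Cd8b1 (100.4 and 115) for CD8 T and NK cells, and Pf4 (20.2 and 75.6), Ppbp (19.9 and 14.9) and the haemoglobin gene Hba-a1 (2.6 and 43.9) for platelets and erythroid cells.

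Cish and Socs2 had higher signals in GFP-positive cells, by 1.77-fold and 1.93-fold, and the other SOCS genes differed less, had probe sets that disagreed or were near or under the floor. Of the 8 genes, 7 had their brightest probe set above the floor on at least 1 array, and Socs6 did not. Of these 7, 6 were higher and 1 lower in GFP-positive cells, and 0 were at least 2-fold higher or lower. Over all 10629 genes above the floor, 49.1% were higher by any amount, 1.89% were at least 2-fold higher and 1.81% at least 2-fold lower. At 1.5-fold, 2 of the 7 were higher, against 9.3% of all genes, and 0 were lower, against 7.97%. The median difference of the 7 was 0.32 log2, beside −0.0078 for all genes. That median is the value of Socs1, which is a bound set by the floor. Single members ranged from −0.36 to 0.95. After loess scaling Socs2 reached 1.003 log2, which made 1 member at least 2-fold higher. All 7 kept their direction after quantile normalization and after loess. RNA of each group comes from a sorted population, so fewer expressing cells and less RNA per cell cannot be told apart.

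**Figure D1:**
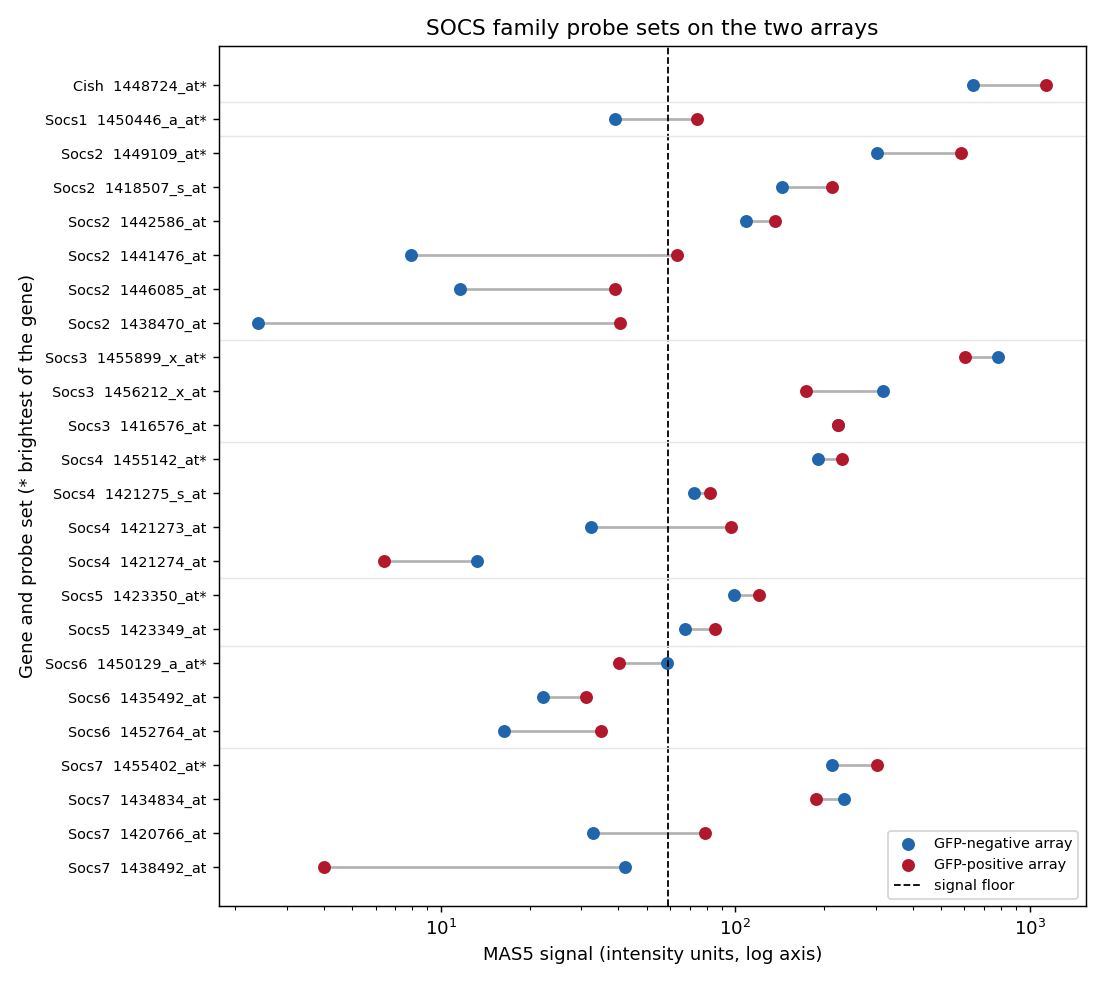
MAS5 signal (log axis) of each of the 24 SOCS family probe sets on the GFP-positive (red) and GFP-negative (blue) array, with the signal floor of 59.3 as a dashed line and the brightest probe set of each gene starred. All 6 Socs2 probe sets and the Cish probe set are to the right on the GFP-positive array, 2 of 3 Socs3 probe sets are clearly to the left, and all 3 Socs6 probe sets are under the floor.

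Cish, which encodes CIS, an inhibitor of IL-2 receptor signals, had a single probe set (1448724_at) with signals of 1136 and 642. It was high on both arrays, and at most 2 of the 106 background probe sets reached its signal on either. The difference was 0.82 log2, or 1.77-fold higher in GFP-positive cells. Among the 10629 genes above the floor, 3.93% had a larger difference in favour of GFP-positive cells. Large folds were rarer among bright genes. Of the 4957 genes with a geometric mean signal of at least 237, which is 4 times the floor and a limit chosen after seeing the data, 0.525% were at least 2-fold higher and 0.666% at least 2-fold lower. Of these, 1.07%, or 53 genes, had a larger difference than Cish, while 3.53% were at least 1.5-fold higher and 5.43% at least 1.5-fold lower. With no further probe set for Cish, the value could not be checked within the arrays.

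The start of the Cish gene is shown because it holds a close pair of matches to the STAT recognition motif. STAT dimers bind a palindrome written as TTCNNNGAA, whose fixed letters read the same on both strands, so that a search of 1 strand covers both. The sequence is RefSeq's for GRCm38.p6, chr9:107296409-107296678 on the plus strand, from 250 bases before the annotated transcription start to base 20 after it, with both matches in capitals.
Cish: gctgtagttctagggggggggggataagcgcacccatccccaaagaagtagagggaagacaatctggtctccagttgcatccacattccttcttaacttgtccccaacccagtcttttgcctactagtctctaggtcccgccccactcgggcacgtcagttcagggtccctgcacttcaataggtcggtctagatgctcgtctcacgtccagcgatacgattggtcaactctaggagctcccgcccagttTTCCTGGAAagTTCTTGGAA
The first match begins at base 1 after the annotated start and the other at base 12, so that their starts are 11 bases apart. In windows from 250 bases before to 50 after a start, 8.30% of 32851 windows held at least 1 TTCNNNGAA, 0.457% at least 2, and 0.0457%, or 15 windows, 2 whose starts lay within 20 bases. Matches describe the letters only, and binding was not measured.

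Of the genes with such a close pair, 5 had a signal above the floor, and the pairs of these 5, Cish included, are listed as a description. They were picked by sequence, outside the rule for named genes, and lie on chr9:107296659-107296678 (plus strand) for Cish, chr8:120736187-120736213 (plus) for Irf8, chr7:19404263-19404287 (minus) for Klc3, chr3:142530230-142530257 (plus) for Gbp7 and chr5:64960033-64960051 (minus) for Tlr6, all GRCm38.p6, with the matches in capitals.
Cish pair: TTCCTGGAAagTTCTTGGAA
Irf8 pair: TTCTCGGAAagagagcgcTTCAGAGAA
Klc3 pair: TTCTCGGAAcgcaggtTTCACCGAA
Gbp7 pair: TTCCAGGAAaagcagaagcTTCTCAGAA
Tlr6 pair: TTCAGAGAAaTTCGGAGAA
Irf8, an interferon-regulated transcription factor gene, had signals of 299.6 and 276.9 and a difference of 0.11 log2. Klc3, a kinesin light chain gene, had signals of 134 and 117 (0.19 log2). The differences of Gbp7, a guanylate-binding protein gene (1701 and 1800.2), and Tlr6, a Toll-like receptor gene (158 and 192.0), were −0.08 and −0.28 log2. Cish had the largest difference of the 5, and the others went both ways. Cish was looked at first as a family member, and a link between such a pair and a difference was not tested. Of 743 genes above the floor with at least 1 TTCNNNGAA in a window, 11.4% were at least 1.5-fold higher and 6.59% at least 1.5-fold lower in GFP-positive cells, and of 7897 genes with none, 9.09% and 7.97%, with medians of 0.02 and −0.01 log2. These are descriptions without a test.

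Socs2, which encodes a regulator best known for restraining growth hormone signals and is a STAT5 target in T cells, was the member with the largest difference. Its brightest probe set (1449109_at) had signals of 586 and 303. That is 0.95 log2, or 1.93-fold higher in GFP-positive cells. Among all genes above the floor 2.30% had a larger difference, and among the bright genes 0.666%, or 33 genes. A probe set designed from the same transcript record (1418507_s_at) had signals of 213 and 144, or 0.57 log2, and 1442586_at had 137 and 109, or 0.33 log2. The GFP-positive array was thus higher for all 3 probe sets above the floor on both arrays, by amounts that shrank with the signal. The other 3 were dim, with 63.5 and 7.9 (at least 1.07-fold higher), 39.0 and 11.6, and 40.5 and 2.4, the last pairs under the floor. These too were higher on the GFP-positive array, but 10, 28 and 27 of the 106 background probe sets reached those GFP-positive signals. Probe sets under the floor on both arrays were in general more often higher on the GFP-positive array, in 54.3% of 16873 cases. With the floored values of all 6 probe sets averaged, the Socs2 difference was 0.32 log2.

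Socs1, which encodes the inhibitor of JAK kinases downstream of interferon-gamma and common gamma chain cytokines, was close to the floor. Its only probe set had signals of 74.2 and 39.0. That makes it higher on the GFP-positive array by at least 1.25-fold, a bound of 0.32 log2. The GFP-positive signal was reached by 5 of the 106 background probe sets and the GFP-negative signal by 16. Of the 4605 probe sets above the floor on 1 array only, 60.4% were above it on the GFP-positive array, as Socs1 was. With the floor doubled, Socs1 was under it on both arrays. The RefSeq window of Socs1 held 0 matches to TTCNNNGAA.

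Socs3, which encodes the inhibitor of gp130 receptors such as that of IL-6, was the member with lower signals in GFP-positive cells, but its probe sets disagreed on whether there was a difference. The brightest (1455899_x_at) had signals of 605 and 778.5, or −0.36 log2. A further probe set (1456212_x_at) had 174 and 316.5, or −0.86 log2, which is 1.82-fold lower. The third (1416576_at) had 223.1 and 223.5, equal signals. The names of the first and second carry the suffix _x, which marks probes that can match other transcripts, whereas the probe set with equal signals carries no such mark. Without probe sets of the suffixes _s and _x, the Socs3 difference was −0.0026 log2. Of the genes above the floor 17.5% had a lower value than the −0.36 log2 of the brightest probe set.

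The Socs3 window held 1 match to TTCNNNGAA and is shown as a description. It is the RefSeq sequence of GRCm38.p6, chr11:117969367-117969616 on the minus strand, which covers the 250 bases before the start, with the match in capitals, 154 bases before the start.
Socs3: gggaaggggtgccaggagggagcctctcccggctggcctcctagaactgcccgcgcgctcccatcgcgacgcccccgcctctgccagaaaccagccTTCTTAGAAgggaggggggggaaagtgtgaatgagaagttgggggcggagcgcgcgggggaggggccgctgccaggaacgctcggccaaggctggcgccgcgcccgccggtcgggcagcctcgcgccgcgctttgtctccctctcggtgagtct
At least 1 such match was found in 8.30% of all windows, as given above. The window of Socs4 held 0 matches. A longer spacing that STAT6 prefers, with 4 bases between TTC and GAA, was found in 0 of the 4 windows of Cish, Socs1, Socs3 and Socs4 and in 6.95% of all windows. Promoter windows of Socs2, Socs5, Socs6 and Socs7 were not analysed here.

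**Figure D2:**
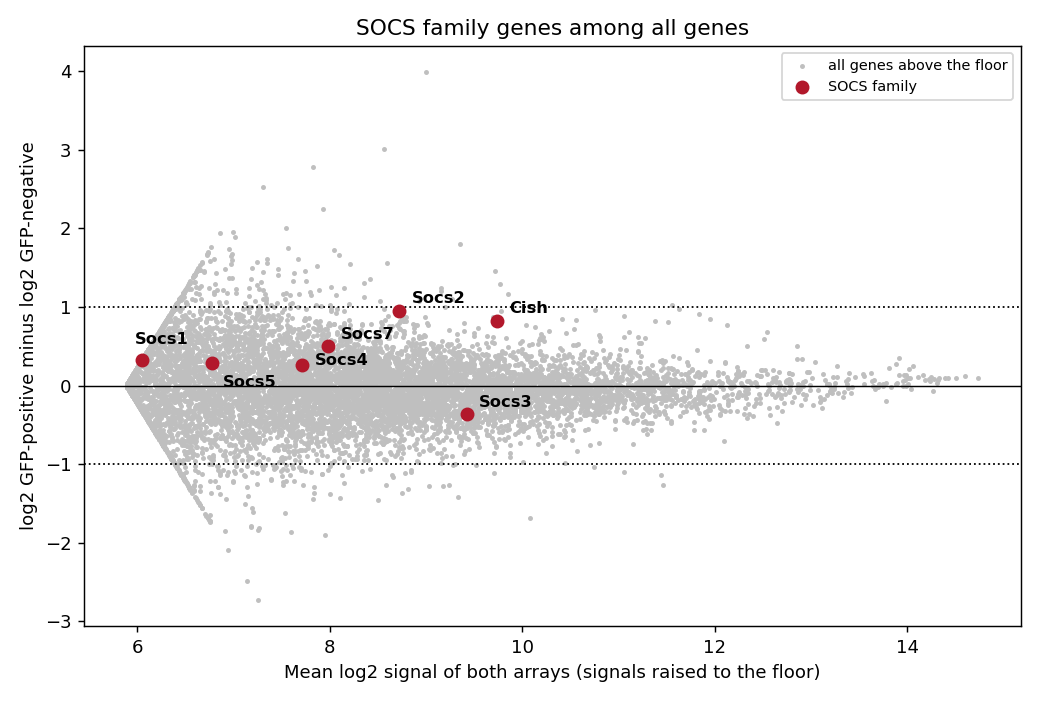
Difference (log2 GFP-positive minus GFP-negative) against mean log2 signal for all 10629 genes above the floor (grey) and the 7 SOCS family genes among them (red), with dotted lines at 2-fold. Socs2 (0.95) and Cish (0.82) lie near the upper edge of genes of like signal, Socs3 (−0.36) lies below 0, and Socs1, Socs4 and Socs5 lie within the bulk.

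Socs4 and Socs5, which encode relatives with long N-terminal extensions that have been linked to epidermal growth factor receptor turnover, differed little by their brightest probe sets. For Socs4 the brightest probe set (1455142_at) had signals of 229.8 and 191, or 0.27 log2. A dimmer one (1421275_s_at) had 82.2 and 72.6, or 0.18 log2. The third (1421273_at) was above the floor on the GFP-positive array alone, at 96.4 and 32.3, which is at least 1.63-fold higher. The last (1421274_at) was under the floor at 6.4 and 13.3. For Socs5 both probe sets were a little higher on the GFP-positive array, with signals of 120.7 and 99.3 (0.28 log2) and of 85.4 and 67.5 (0.34 log2). Many genes above the floor had larger differences than the brightest probe sets of Socs4 and Socs5, 24.2% and 23.3%.

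Socs6, whose protein binds insulin receptor and KIT signalling components, was under the floor on both arrays with all 3 probe sets. Its brightest (1450129_a_at) had signals of 40.1 and 58.8, the latter just under the floor. The others had 31.1 and 22.2, and 35.1 and 16.4. They thus went both ways, and no fold is given. The signal of 58.8 was reached by 8 of the 106 background probe sets, and after quantile normalization or loess this probe set passed the floor on the GFP-negative array only, with −0.15 and −0.00044 log2.

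Socs7, which encodes a member that binds adaptor proteins such as NCK, went both ways. Its brightest probe set (1455402_at) had signals of 302 and 213, or 0.51 log2, 1.42-fold higher. Another of similar brightness (1434834_at) had 189 and 234, or −0.31 log2. A dimmer one (1420766_at) was above the floor on the GFP-positive array alone, at 78.9 and 32.9, at least 1.33-fold higher. The last (1438492_at) had 4.0 and 42.1, both under the floor. With all 4 averaged the difference was 0.15 log2.

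Over the family, 17 of the 24 probe sets were above the floor on at least 1 array, against 18072 of all 34945 with a single symbol. Of the 17, 13 were higher and 4 lower in GFP-positive cells. The share higher by any amount was computed for genes only, at 49.1%. Several of the 17 read the same gene, and only 13 were above the floor on both arrays. Of all 4605 probe sets above it on 1 array only, 60.4% were above it on the GFP-positive array. None of the 17 was at least 2-fold higher, against 2.28% of all 18072 probe sets above the floor, nor at least 2-fold lower, against 1.84%. At 1.5-fold, 3 of the 17 were higher, against 10.7%, and 1 was lower, against 8.57%. As a measure of scatter within these arrays, the log2 difference varied between probe sets that read 1 gene with a standard deviation of 0.40, computed on 8381 probe sets and 3283 genes. The differences of Socs2 and Cish were 2.37 and 2.05 times that value, that of Socs7 1.26 times, and those of Socs4 and Socs5 and the size of that of Socs3 were below it. Socs1 has only a bound and cannot be placed against it. This standard deviation holds no variation between mice, sorts or hybridisations. The ratio of 3′ to 5′ signal, which is higher where RNA is shorter, was 5.30 and 3.57 for Actb and 9.27 and 6.24 for Gapdh on the GFP-positive and GFP-negative array. Its part in the differences between probe sets of a gene was not tested.

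**Figure D3:**
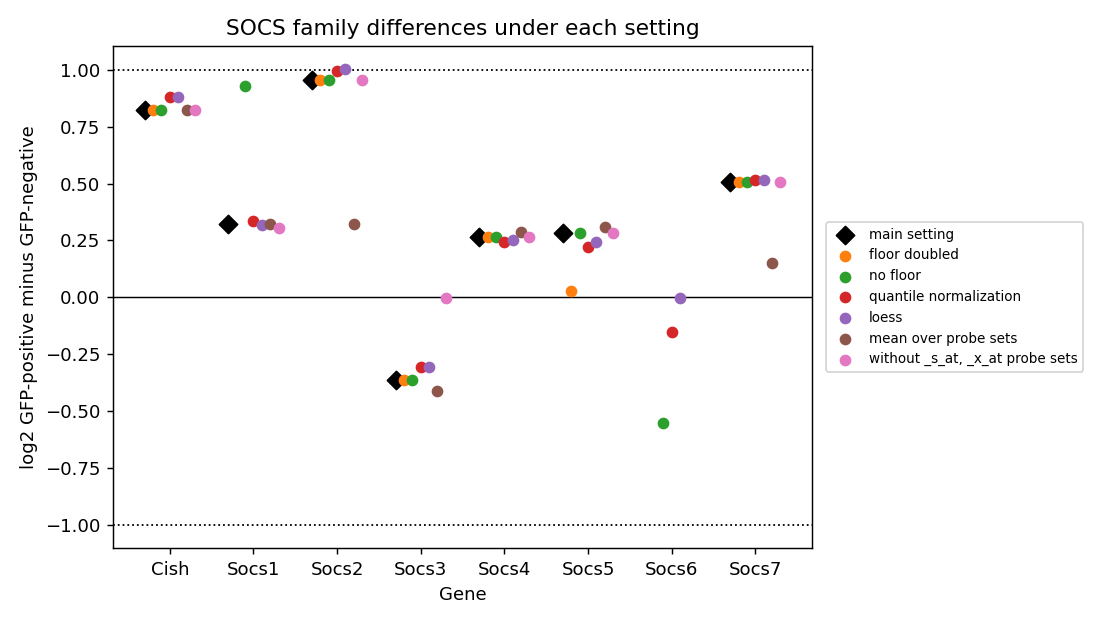
Difference (log2 GFP-positive minus GFP-negative) of each SOCS family gene in the main setting (black diamonds) and under 6 alternatives (coloured points), with dotted lines at 2-fold; a missing point means that the gene was under the floor. Cish stays between 0.82 and 0.88, Socs2 falls to 0.32 when its probe sets are averaged, and Socs3 is at −0.0026 without probe sets of the suffixes _s and _x.

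**Figure D4:**
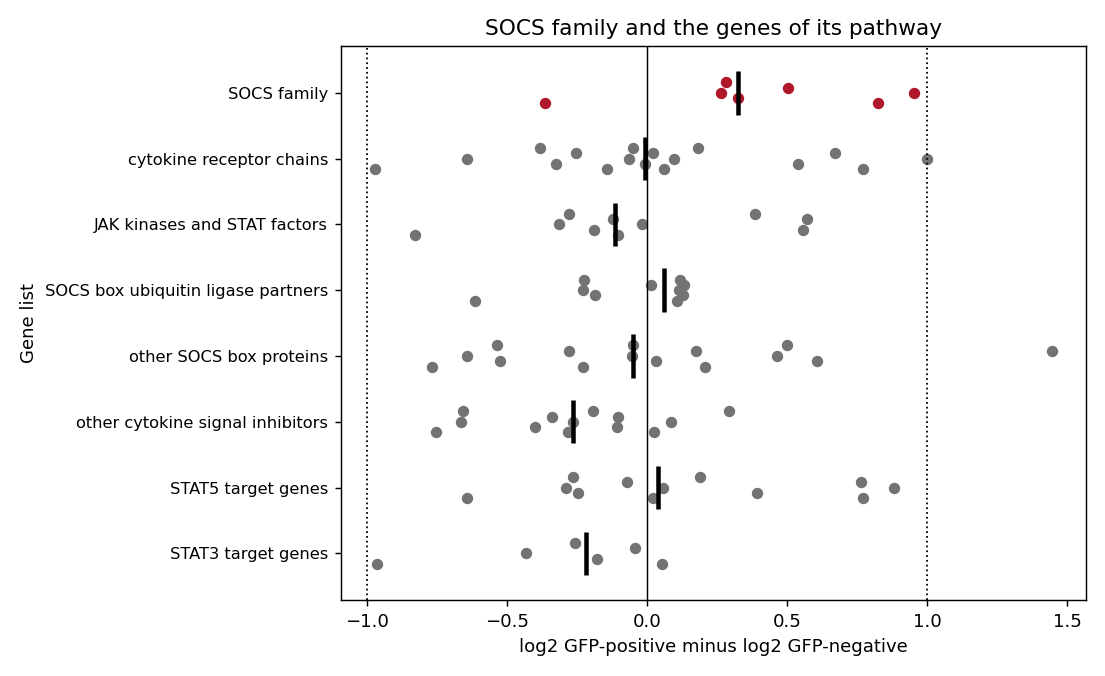
Difference (log2 GFP-positive minus GFP-negative) of each gene above the floor in the SOCS family (red) and in 7 lists of pathway genes (grey), with the list median as a black bar and dotted lines at 2-fold; vertical scatter within a row only separates the points. The SOCS family has a median of 0.32, which is the bound of Socs1, and the other medians lie between −0.27 and 0.06.

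Receptor chains, which SOCS proteins act on, went both ways. Of 20 with a probe set, 17 were above the floor. Of these, 8 were higher and 9 lower in GFP-positive cells, against 50.8% lower among all genes, and 0 differed by at least 2-fold. The median was −0.0048 log2, or 0.03 after quantile normalization or loess. The IL-2 receptor chains stood at the upper end, with Il2rb at 217 and 108 (0.999 log2, 1.999-fold) and Il2ra at 618 and 362 (0.77 log2). At the other end was Ifngr1, the ligand-binding chain of the interferon-gamma receptor that SOCS1 restrains, at 345 and 677.5 (−0.97 log2). Il15ra was at least 1.59-fold higher by its brightest probe set (94.3 and 54.2), but a further one gave −0.87 log2, and their mean was −0.0992.

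JAK kinases and STAT factors had a median of −0.11 log2, with 3 of 10 higher and 7 lower, against 50.8% lower among all genes. The STAT5 genes split, with Stat5b at 336 and 226 (0.57 log2, a further probe set 0.45) and Stat5a at 222 and 276 (−0.31 log2). Jak3, the kinase of the common gamma chain, had 237 and 161 (0.56 log2), Tyk2 512 and 391.5 (0.39 log2), and Jak1 1676 and 1910 (−0.19 log2). Stat4, which transmits IL-12 signals, had 1137 and 2016 (−0.83 log2). None of the 10 reached 2-fold.

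Partner genes of the ubiquitin ligase that SOCS boxes recruit went both ways. Of 10 partner genes above the floor, 6 were higher and 4 lower, against 50.8% lower among all genes. None was past 2-fold, and the median was 0.06 log2. The list also holds genes other than the ligase's own subunits, so its median is not that of the ligase alone. The 4 lower genes were Cul5, Rbx1, Rnf7 and Elob. The 6 higher were at most 0.13 log2 by their brightest probe sets, with further probe sets up to 0.78. Cul5, the cullin scaffold of this ligase, was dim at 51.7 and 90.6, at least 1.53-fold lower in GFP-positive cells, and Rbx1, a RING subunit, had 50.9 and 69.3, at least 1.17-fold lower. Both were under the doubled floor. Rnf7, the RING partner of cullin 5, had 804 and 941.5 (−0.23 log2), with a further probe set at 0.32, and the adaptor gene Elob had 3309 and 3765 (−0.19 log2), with a further one at 0.02.

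Other SOCS box proteins, which use the same box with other binding domains, included the single pathway gene past 2-fold by its brightest probe set. Of 25 genes, 15 were above the floor. Among these, 7 were higher and 8 lower, against 50.8% lower among all genes, and the median was −0.05 log2. Of the 15, 1 was at least 2-fold higher, against 1.89% of all genes. Wsb1, a WD repeat protein gene, had 170.5 and 62.6 (1.45 log2, 2.72-fold higher), with the GFP-negative signal just above the floor, and the bound was 0.52 log2 with the floor doubled. Asb2, an ankyrin repeat member, had 145 and 247 (−0.77 log2), and Asb13 had 76.0 and 119 (−0.64 log2, a further probe set −1.07), with −0.00097 log2 left when the floor was doubled. Asb7 had 179 and 117.5 (0.61 log2), but a further probe set gave −1.19 log2. Asb1, named outside the rule for its further probe set, had 0.50 log2 by its brightest and −1.16 log2 by the further one. The further probe sets of Asb13, Asb7 and Asb1 were thus past 2-fold in the direction opposite to Wsb1.

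By their brightest probe sets, cytokine signal inhibitors outside the SOCS family were mostly lower in GFP-positive cells, 10 of 13 against 50.8% of all genes. The median was −0.27 log2, or −0.14 with averaged probe sets, and 0 were past 2-fold. The gene at the median had a further probe set at 0.82 log2. Ptpn11, which encodes the phosphatase SHP-2, had 1283.5 and 2165 (−0.75 log2, a further probe set −0.74). Usp18, a brake on type I interferon receptors, had 114 and 180.1 (−0.66 log2), and Sh2b3, which encodes the adaptor LNK, 342 and 451 (−0.40 log2). For Pias2, a SUMO ligase gene, the brightest probe set had 294 and 463 (−0.66 log2) and a further one gave 0.50.

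Genes that STAT factors are known to switch on went both ways for STAT5, and the STAT3 list had more lower than higher members. Of 12 STAT5 targets other than Cish and Socs2, 7 were higher, against 49.1% of all genes, and 5 lower, and the median was 0.04 log2. Lta, a lymphotoxin gene, had 224.5 and 122 (0.88 log2) and Myc 163 and 95.8 (0.77 log2), whereas the kinase gene Pim2 had 282 and 440 (−0.64 log2). Of 6 STAT3 targets, which respond to the cytokines that SOCS3 restrains, 1 was higher and 5 lower, against 50.8% lower among all genes, with a median of −0.22 log2 that was −0.09 with averaged probe sets. Bcl6, the follicular helper regulator, had 203 and 396.5 (−0.96 log2) and Batf 631 and 851 (−0.43 log2). Rora (−0.26 log2) and Maf (−0.18 log2) had further probe sets in both directions, from −0.33 to 0.86 and from −0.94 to 0.49. Rora came to 0.07 log2 with averaged probe sets, and Maf to 0.18 log2 without probe sets of the suffixes _s and _x. None of these targets was past 2-fold.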

How the data were processed

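Each deposited value is the MAS5 signal intensity of a probe set, a summary that the submitters' processing notes credit to the authors, and per the labels the arrays are Affymetrix Mouse Genome 430 arrays. Its version, background settings and detection calls were not given in those notes. The 2% trimmed mean was 150.0 on both arrays, so no further scaling was applied. Probe sets were named by the platform annotation: 34945 had 1 symbol, 932 several and 9211 none, and 64 were controls. A gene was represented by its brightest probe set by mean log2 signal. The floor came from 62 of 70 listed tissue-restricted genes, 13 of which passed it by their brightest probe set. The floor, collapsing and counting steps were tested on simulated data. The arrays' number, 1 per group, limits the precision, and no p-value or standard error was computed. Calculations used Python 3.11.15, pandas 2.3.3 and statsmodels 0.14.6 (loess span 0.3).

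The members and lists were chosen with earlier results of these data known. Named genes were all members, Foxp3, Il2ra, Il2rb, Jak1, Jak3, Stat5a, Stat5b and Cul5, up to 4 genes per pathway list with the largest absolute difference, and up to 3 markers per list with the highest mean signal. No gene was named for a pattern like that of a member, since 2 arrays give each gene a single difference. Alternatives were a doubled floor, no floor, quantile normalization, loess, averaged probe sets, leaving out probe sets of the suffixes _s and _x, and a 1.5-fold threshold. Another pathway list is not reported here. A comparison of the proteins was planned and not made here. Promoter windows are RefSeq's for GRCm38.p6.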

Additional observations from a re-analysis of the deposited data

How the results depend on the processing

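Each alternative was compared with the main value, and a difference counted as moved when it shifted by more than 0.40 log2, the standard deviation between probe sets of a gene. The differences of Cish, Socs3, Socs4, Socs5 and Socs7 stayed within that limit under every alternative run, as did the family median (0.29 to 0.39 log2, and 0.66 over genes of at least 4 times the floor, a choice made after seeing the data), all 7 list medians and Foxp3, although Socs3 came to −0.0026 without probe sets of the suffixes _s and _x. That limit is wider than the main differences of Socs3, Socs4 and Socs5, the family median and all 7 list medians. Staying within it therefore cannot show that these were stable. The medians of receptor chains and of other SOCS box proteins changed sign between settings. Without a floor Socs1 was 0.93 log2. With averaged probe sets Socs2 was 0.32 and Socs7 was 0.15. Socs6, under the floor in the main setting, entered at −0.55 without a floor, −0.15 after quantile normalization and −0.00044 after loess. The count of members at least 2-fold higher, 0 in the main setting, was 1 after loess, and at 1.5-fold it was 2. With the floor doubled, Socs5 was 0.03 log2 and Socs1 gave no value. By construction, the Socs1 value without a floor is the log2 ratio of its signals of 74.2 and 39.0. The averaged Socs2 value is the mean of its 6 floored differences. Why probe sets of a gene differ was not tested, nor was the cause of the other shifts. Averaging brings in all further Socs2 probe sets. Of these, 1418507_s_at (0.57 log2) and 1442586_at (0.33 log2) were above the floor on both arrays. The others were near or under it, with floored differences of 0.10, 0 and 0 log2. The number of all genes past 2-fold depended on the floor, with 201 higher and 192 lower in the main setting, 64 and 71 with it doubled, 3305 and 2420 without it, and 96 and 88 with averaged probe sets. No paired analysis was possible because each group has 1 array. The family median is the Socs1 bound in the main setting. Single probe sets near the floor, such as those of Socs1, Cul5 and Rbx1, carry only bounds.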
